A study of Homo sapiens with 8 samples.

Results

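Kinesins are motor proteins that use ATP to move along microtubules or to take them apart. The mitotic kinesins build the spindle, move and align the chromosomes on it, and organise the midzone where the cell is cut into its daughters. Their genes belong to the late part of the cell cycle programme, so that their mRNAs are abundant in dividing cells and scarce in resting ones. The 10 genes described here were taken by their names in the array design and were KIF11, KIF15, KIF20A, KIF20B, KIF23, KIF4A, KIF18A, KIF2C, KIFC1 and CENPE. They had 13 probes among 58201, and they were 10 of the 43317 genes to which those probes were reduced by taking the brightest probe of each gene.

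RNA of 3 human cancer cell lines was hybridised to 8 Agilent 2-colour arrays on 1 slide, with 1 array per condition. PC3 prostate cancer cells received either strand of miR-150 (miR-150-5p or miR-150-3p), miR-100-3p or miR-99a-3p. FaDu, a line of hypopharyngeal carcinoma, received either strand of miR-99a. PANC-1, a line of pancreatic cancer, received si-FOXQ1-1 or si-FOXQ1-2, siRNAs against the forkhead transcription factor FOXQ1. All RNAs were delivered with the lipid reagent Lipofectamine RNAiMAX. On each array Cy5 held the transfected cells and Cy3 held mock cells of the same line, which the labels describe as not transfected, without saying whether they received the lipid reagent alone. A log2 ratio below 0 therefore means less RNA in the transfected cells. Dyes were not swapped, arrays with a control miRNA were not analysed here, and the time after transfection is not given in the sources used here. Because no condition had a replicate, no test between conditions was possible, and each value describes 1 pair of RNA samples.

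The share of gene spots well above background was 44.4% to 49.1% in Cy3 and 37.1% to 41.7% in Cy5, and the SD of repeated spots of a probe had a median of 0.050 to 0.066 on the log2 scale. The number of arrays limits the precision. All 10 kinesins were well above background in both channels of all 8 arrays, on the probes used, so that none of those values was a bound. CENPE was read on 10 spots per array, 9 of them usable on the PC3 miR-100-3p array, and each other kinesin on 1 spot. The error printed after a ratio is the error that the scanner software gave for the log ratio, which covers the spot and not the culture. FOXQ1 itself had a log2 ratio of −2.16 (spot error 0.29) with si-FOXQ1-1 and −2.12 (0.28) with si-FOXQ1-2. The squamous keratins and their companions KRT5, KRT14, KRT6A, TP63 and DSG3 were above background in both FaDu mock channels, as 5 of 5 markers, and 0 of 5 were above background in all mock channels of PC3 or of PANC-1. In PC3 3 of 5 prostate luminal markers were above background in all mock channels, HOXB13 with the highest signals, and KLK3, which encodes prostate-specific antigen, was in none. In PANC-1 0 of 5 markers of the normal pancreas were above background.

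The array on which the kinesins moved most carried miR-99a-3p, and 2 related miRNAs on the slide can be set beside it in sequence. Of these, miR-99a-5p was given only to FaDu cells and miR-100-3p only to PC3 cells, with 1 array each. An effect of sequence was therefore not tested. miR-99a-3p and miR-99a-5p are the passenger and guide strands of 1 hairpin, while miR-100-3p comes from a paralogous hairpin. By name, 3 of the 5 transfected miRNAs were matched to mature sequences from RefSeq (GRCh38.p14) in the table used here, and they are shown from 5′ to 3′ with the seed, bases 2 to 8, in capitals. miR-99a-3p lies at chr21:16539138-16539159 and miR-99a-5p at chr21:16539101-16539122, both on the plus strand, and miR-100-3p lies at chr11:122152240-122152261 on the minus strand.
miR-99a-3p: cAAGCUCGcuucuaugggucug
miR-100-3p: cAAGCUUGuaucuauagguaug
miR-99a-5p: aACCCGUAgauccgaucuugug
Counted from 1 at the 5′ end, the seeds of miR-99a-3p and miR-100-3p differed at 1 base (C7U), and their 22 bases differed at 5 positions. The seeds of miR-99a-3p and miR-99a-5p differed at 5 of 7 bases.

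In PC3 cells with miR-99a-3p all 10 kinesins were below mock, where 48.8% of all detected genes were. Their median log2 ratio was −2.08, with a range from −3.18 (KIF15) to −0.72 (KIF20B), while the median of all 20545 detected genes of that array was 0.02. In these bulk samples, fewer cells in mitosis and less RNA per cell cannot be told apart. A ratio of −1 or lower was found for 9 of the 10 kinesins, against 7.39% of all detected genes, and 0 of 10 reached 1, against 4.23%. Among the 17452 genes measured in both channels, 8 of the 10 lay within the lowest 1%. The study had picked KIF11 as a candidate target on this same array, so its value here is not independent of that choice, and the median of the other 9 was −1.98. In FaDu cells with the same miRNA all 10 kinesins were above mock, where 47.8% of all detected genes were. Their median there was 0.84, with a range from 0.16 (KIF2C) to 1.13 (KIFC1). There 2 of 10, KIF23 and KIFC1, reached 1, against 8.25% of detected genes, both within their spot error of that threshold, and 0 of 10 reached −1, against 9.37%.

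**Figure D1:**
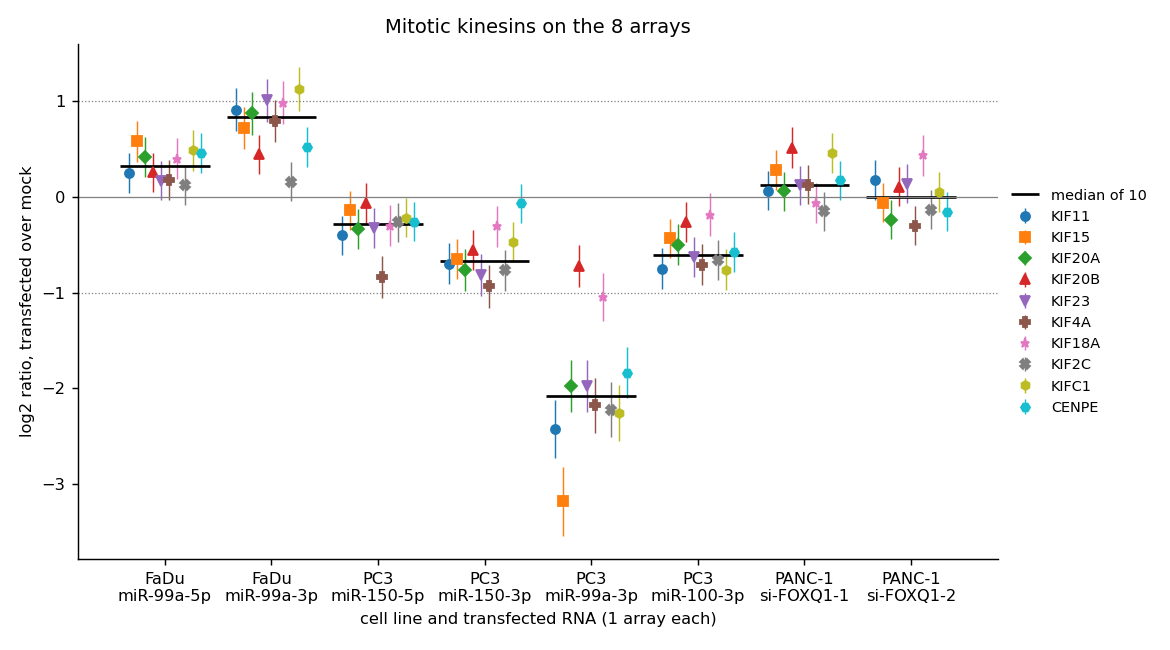
Log2 ratio of transfected over mock (vertical axis) of the 10 mitotic kinesins on each of the 8 arrays (horizontal axis), with bars for the spot error and a black line for the median of the 10. All points of the 4 PC3 arrays lie below 0, most of all with miR-99a-3p (median −2.08), and all points of the 2 FaDu arrays lie above 0.

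Motors that set the distance and shape of the spindle poles were KIF11, KIF15 and KIFC1. KIF11 crosslinks antiparallel microtubules and slides them apart, which separates the poles. Its probe lies at chr10:94414627-94414686 in the coordinates of the array design (hg19), as do those given for the other genes, and the exon or UTR it falls in was not determined. Its log2 ratio was −2.43 (spot error 0.30) in PC3 with miR-99a-3p, where the mock signal was 1354 and the transfected signal 252. In the other PC3 arrays it was −0.75 (0.22) with miR-100-3p, −0.70 (0.21) with miR-150-3p and −0.40 (0.21) with miR-150-5p. In FaDu it was 0.91 (0.22) with miR-99a-3p and 0.25 (0.21) with miR-99a-5p, and in PANC-1 it was 0.07 (0.20) and 0.18 (0.20) with si-FOXQ1-1 and si-FOXQ1-2. The 4 PC3 values were thus all low, the FaDu values high, and both PANC-1 values were within the spot error of 0.

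KIF15 can keep a bipolar spindle standing when KIF11 is weak, and its probe lies at chr3:44894386-44894445. It had the lowest ratio of the 10 members on the slide, −3.18 (spot error 0.36) in PC3 with miR-99a-3p, from a mock signal of 1376 to a transfected signal of 152, which is 9.08-fold lower. It ranked as number 4 from the lowest of 17452 genes. Its other PC3 ratios were −0.65 (0.21) with miR-150-3p, −0.43 (0.21) with miR-100-3p and −0.14 (0.20) with miR-150-5p, the last within its error. FaDu gave 0.72 (0.22) with miR-99a-3p and 0.59 (0.21) with miR-99a-5p, and PANC-1 gave 0.28 (0.21) and −0.06 (0.21). With background correction by normexp and loess normalization in limma, the ratio with miR-99a-3p in PC3 was −2.56.

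KIFC1 moves towards microtubule minus ends, focuses the poles and gathers extra centrosomes in cancer cells. Its 60-base probe spans 194 bases of the genome, chr6:33374428-33374621, and so crosses an exon junction. In PC3 it had −2.26 (spot error 0.29) with miR-99a-3p, −0.76 (0.22) with miR-100-3p, −0.47 (0.21) with miR-150-3p and −0.21 (0.21) with miR-150-5p. In FaDu it had the highest ratio of the 10 members on the slide, 1.13 (0.23) with miR-99a-3p, beside 0.49 (0.21) with miR-99a-5p. In PANC-1 it had 0.46 (0.21) with si-FOXQ1-1 and 0.05 (0.20) with si-FOXQ1-2. KIFC1 had thus the widest swing between the lines after KIF15, and with si-FOXQ1-1 it stood above its error as it did with both FaDu miRNAs.

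Motors of the chromosomes and their attachments were KIF4A, KIF2C, CENPE and KIF18A. KIF4A binds chromosome arms and limits the length of the midzone microtubules. Its probe lies at chrX:69640147-69640206. Its ratios in PC3 were −2.18 (spot error 0.29) with miR-99a-3p, −0.93 (0.22) with miR-150-3p, −0.83 (0.22) with miR-150-5p and −0.71 (0.21) with miR-100-3p. It was the lowest of the 10 on both miR-150 arrays. FaDu gave 0.80 (0.22) with miR-99a-3p and 0.18 (0.21) with miR-99a-5p, and PANC-1 gave 0.13 (0.20) and −0.30 (0.21). A second KIF4A probe, dimmer than the first, read −1.96 (0.29) with miR-99a-3p in PC3, −0.77 (0.22) with miR-150-5p in PC3 and 0.0017 (0.21) with si-FOXQ1-2, so that the low value with the second siRNA was not seen on both probes.

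KIF2C removes tubulin from microtubule ends and corrects wrong attachments at the centromere, and its probe lies at chr1:45233066-45233125. In PC3 it had −2.22 (spot error 0.29) with miR-99a-3p, −0.77 (0.22) with miR-150-3p, −0.66 (0.21) with miR-100-3p and −0.27 (0.21) with miR-150-5p. It was the kinesin that left mock least in FaDu, with 0.16 (0.20) with miR-99a-3p and 0.12 (0.20) with miR-99a-5p, both within the error. In PANC-1 it had −0.15 (0.20) and −0.13 (0.20), also within the error.

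CENPE is the kinetochore motor that carries chromosomes to the spindle equator. With its 10 spots, all of 1 probe at chr4:104027339-104027398, it is the member read most often. Its ratio was −1.84 (spot error 0.27, SD of 0.12 between 10 spots) in PC3 with miR-99a-3p and 0.53 (0.21, SD 0.06 between 10 spots) in FaDu with miR-99a-3p, a difference far beyond the spread between spots. It had −0.58 (0.21) with miR-100-3p, −0.26 (0.21) with miR-150-5p and −0.06 (0.20) with miR-150-3p in PC3, 0.46 (0.21) with miR-99a-5p in FaDu, and 0.17 (0.21) and −0.15 (0.20) in PANC-1. It was the member nearest to 0 with miR-150-3p, where the other 9 ranged from −0.93 to −0.30.

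KIF18A shortens the swings of chromosomes about the equator by acting at microtubule plus ends, and its probe lies at chr11:28042416-28042475. It was the dimmest member, with a mock signal of 207 and a transfected signal of 100 in PC3 with miR-99a-3p, and its ratio there was −1.05 (spot error 0.25). That ratio was −0.60 with limma's normexp and loess. It was −0.72 when the 4 PC3 mock channels were averaged as the control after normexp, loess and normalization between arrays. The ratio did not reach −1 under either, and since both used normexp and loess, the averaging alone was not tried. In the other PC3 arrays it had −0.30 (0.22) with miR-150-5p, −0.30 (0.22) with miR-150-3p and −0.19 (0.22) with miR-100-3p. In FaDu it had 0.99 (0.23) with miR-99a-3p and 0.40 (0.21) with miR-99a-5p. In PANC-1 it had −0.06 (0.21) with si-FOXQ1-1 and 0.43 (0.21) with si-FOXQ1-2, the largest split between the siRNAs among the 10.

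The midzone motors of the last stage of division were KIF23, KIF20A and KIF20B. KIF23 pairs with RACGAP1 to form centralspindlin, which places the cleavage furrow. Its probe lies at chr15:69740524-69740583. Its PC3 ratios were −1.98 (spot error 0.27) with miR-99a-3p, −0.81 (0.22) with miR-150-3p, −0.63 (0.21) with miR-100-3p and −0.32 (0.21) with miR-150-5p. Its FaDu ratios were 1.01 (0.22) with miR-99a-3p and 0.17 (0.20) with miR-99a-5p, and its PANC-1 ratios were 0.12 (0.20) and 0.14 (0.20). A dimmer second probe read −2.26 (0.31) and 1.26 (0.24) with miR-99a-3p in PC3 and FaDu, and it read −0.16 (0.21) with miR-100-3p, nearer to 0 than the first probe. In PANC-1 the second probe read 0.42 (0.21) with si-FOXQ1-1 and 0.35 (0.21) with si-FOXQ1-2. Both were above its spot error, while the first probe lay within its error with both siRNAs. With limma's normexp and loess the FaDu value of the first probe was 0.97, which leaves KIFC1 as the 1 member past 1.

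KIF20A brings the chromosomal passenger complex to the midzone. Its probe spans 724 bases, chr5:137522081-137522804, and so also crosses an exon junction. It followed the median of the 10 most closely. Its PC3 ratios were −1.98 (spot error 0.27) with miR-99a-3p, −0.76 (0.22) with miR-150-3p, −0.50 (0.21) with miR-100-3p and −0.34 (0.21) with miR-150-5p. FaDu gave 0.87 (0.22) with miR-99a-3p and 0.42 (0.21) with miR-99a-5p, and PANC-1 gave 0.06 (0.20) and −0.24 (0.21).

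KIF20B acts at the midbody late in cytokinesis, and by the deposited ratios it was the member that moved least with miR-99a-3p in PC3. Its ratio there was −0.72 (spot error 0.22), from a mock signal of 420 to a transfected signal of 255, and 8.14% of the genes measured in both channels were lower. With limma's normexp and loess that ratio was −0.61, beside −0.60 for KIF18A, so that the order of these members depended on the processing. KIF20B had −0.56 (0.21) with miR-150-3p, −0.27 (0.21) with miR-100-3p and −0.06 (0.21) with miR-150-5p. FaDu gave 0.45 (0.21) with miR-99a-3p and 0.26 (0.21) with miR-99a-5p, and PANC-1 gave 0.52 (0.21) with si-FOXQ1-1 and 0.11 (0.21) with si-FOXQ1-2. The probe used lies at chr10:91522529-91522588. A second probe at chr10:91534055-91534114, designed on another transcript record, was dimmer and read 1.37 (0.25) with miR-99a-3p in FaDu and −1.06 (0.27) with miR-150-3p in PC3. With miR-99a-3p in PC3 its Cy5 spot was not well above background, with a mock signal of 106 and a transfected signal of 47.2, so no ratio of that probe is given there. The signs were the same on both probes of KIF20B on the other 7 arrays, while the sizes differed on some.

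With the same miRNA each member thus had opposite signs in the 2 lines, though KIF2C in FaDu lay within its spot error of 0. FaDu minus PC3, the difference of the log2 ratios with miR-99a-3p, was positive for 10 of 10, where 48.6% of 14882 genes were. Its median over the 10 was 2.91. It ran from 1.17 (combined spot error 0.30) for KIF20B and 2.03 (0.34) for KIF18A to 3.38 (0.37) for KIFC1 and 3.90 (0.42) for KIF15. All 10 differences were larger than the combined spot error, where 32.8% of 14882 genes were that far above 0, but with 1 array in each line the spread between cultures is unknown. Within PC3, miR-99a-3p minus miR-100-3p was negative for 10 of 10, where 47.7% of 16269 genes were. Its median over the 10 was −1.47. That difference was −2.75 (0.42) for KIF15, −1.68 (0.37) for KIF11 and −0.46 (0.30) for KIF20B, and each of the 10 was larger than the combined spot error, where 25.2% of 16269 genes were that far below 0. Within FaDu, miR-99a-3p minus miR-99a-5p was positive for 10 of 10 with a median of 0.52, and 6 of 10 differences were larger than the combined error, from 0.45 (0.30) for KIF20A to 0.84 (0.30) for KIF23, where 29.1% of 15233 genes were that far above 0. KIF15, KIF2C, CENPE and KIF20B differed there by 0.04 to 0.19, within the error.

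**Figure D2:**
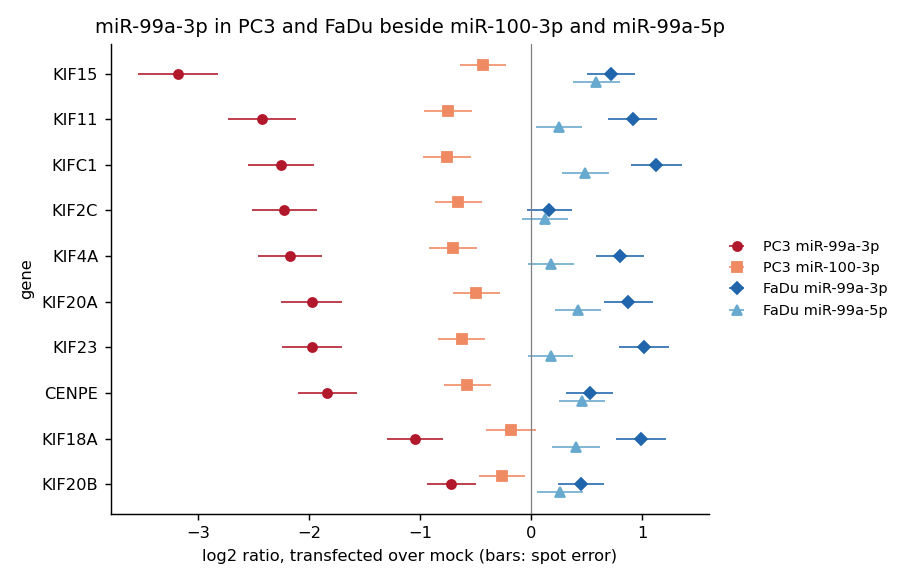
Log2 ratio of transfected over mock (horizontal axis) of each kinesin (vertical axis, ordered by the PC3 miR-99a-3p value) on 4 arrays, with bars for the spot error. The miR-99a-3p points of PC3 lie to the left of the miR-100-3p points for all 10 genes, and both FaDu arrays lie to the right of 0.

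The other 3 PC3 arrays gave smaller ratios of the same sign. Of all detected genes, 52.6% were below mock with miR-100-3p, 51.7% with miR-150-3p and 50.9% with miR-150-5p. With miR-100-3p in PC3 all 10 were below mock, with a median of −0.60 and a range from −0.76 (KIFC1) to −0.19 (KIF18A). None of the 10 passed −1 or 1, against 4.33% of detected genes. Even so, 8 of the 10 lay within the lowest 10% of the 17060 genes measured in both channels. With miR-150-3p the median was −0.67, with 0 of 10 past either threshold, against 9.36% of detected genes, and 7 of 10 within the lowest 10%. With miR-150-5p the median was −0.28, with 0 of 10 past either threshold, against 5.16%, and 2 of 10 within the lowest 10%. miR-150-5p minus miR-150-3p was positive for 9 of 10, all but CENPE, where 50.9% of genes were. The difference was larger than the combined spot error for 5 of 10, a share near the 45.9% of 16842 genes for which it was.

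With miR-99a-5p in FaDu all 10 were above mock, 7 of them by more than their spot error, where 45.6% of all detected genes were above mock. The median of the 10 was 0.33, with a range from 0.12 (KIF2C) to 0.59 (KIF15), and 0 of 10 passed −1 or 1, against 5.72% of detected genes. In PANC-1 the members scattered about 0. The median was 0.13 with si-FOXQ1-1, with 8 of 10 above 0, and −0.0041 with si-FOXQ1-2, with 5 of 10 above 0, where 46.5% and 47.9% of all detected genes were above 0. None passed −1 or 1 with either siRNA, against 4.21% and 3.7% of detected genes. The siRNAs differed by more than the combined spot error for 7 of 10 members, where 28.3% of 15831 genes did in either direction, with si-FOXQ1-1 minus si-FOXQ1-2 from −0.49 (0.30) for KIF18A to 0.43 (0.29) for KIF4A.

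Genes that work with these motors gave the setting, and lists of them are described by counts and medians. On the PC3 miR-99a-3p array the 23 spindle and cytokinesis partners, among them kinases, the passenger complex and kinetochore proteins, had a median of −2.02. All 23 were below 0, beside 48.8% of all genes, and 20 of 23 were at −1 or lower, beside the 7.39% of all genes. The lowest were BIRC5 (survivin, of the passenger complex) with −2.41 (spot error 0.30), NUF2 (of the kinetochore's microtubule-binding complex) with −2.38 (0.30) and BUB1B (of the spindle checkpoint) with −2.26 (0.29). The highest was CKAP5, a microtubule polymerase, with −0.53. In FaDu with miR-99a-3p all 23 were above 0, beside 47.8% of all genes, with a median of 0.92. There 8 of 23 were at 1 or higher, beside the 8.25%. The partners thus had the sign of the kinesins in both lines.

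Further kinesins were described in 2 lists, those with other mitotic roles and those of interphase transport. Of 6 other mitotic kinesins 5 had a probe and 4 were detected in PC3 with miR-99a-3p. KIF14, a partner of citron kinase in cytokinesis, had −2.43 (spot error 0.30), and KIF22, a chromosome-arm motor, had −1.58 (0.25). KIF2A, a depolymerase that also acts outside mitosis, had 0.11 and is named because it was the 1 of the 4 not below mock. KIF18B was well above background in Cy3 only, with a mock signal of 43.2, too dim to set a lower limit on its change. The median of the 4 was −1.86, −1.58 with both channels required and −0.93 with limma's normexp and loess, so that with so few genes it depended on the processing. In FaDu with miR-99a-3p 3 of them were detected, with a median of 0.30 and 0 of 3 at 1 or higher, beside 8.25% of all genes. There KIF22 had 0.70 (0.21), while KIF14 had 0.09 (0.20), within its error.

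Among 32 transport and ciliary kinesins and kinesin light chains, 24 were detected on that array, with a median of 0.05. None was at −1 or lower, against 7.39% of all detected genes, and 1 of 24 reached 1, a share close to the 4.23% of all genes. The gene that reached 1 was KIF5C, a heavy chain of the conventional transport kinesin, with 1.48 (spot error 0.27). Its mock signal differed between the PC3 arrays, with 96.4 on this array and 60.8 on the miR-100-3p array against 361 and 453 on the miR-150-5p and miR-150-3p arrays. The transfected signal of 269 lay within that range of mock signals. In FaDu the transport list had a median of 0.11, with 2 of 23 at −1 or lower and 2 of 23 at 1 or higher, close to the 9.37% and 8.25% of all genes.

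Dynein and dynactin form the minus-end motor that works against many of these kinesins and also carries cargo in interphase. Their 20 genes had a median of −0.01 in PC3 with miR-99a-3p, and 2 of 20 were at −1 or lower, a share close to the 7.39% of all genes. These were DYNC1I1 (−1.54, spot error 0.29), an intermediate chain, and DCTN5 (−1.03, 0.23), a dynactin subunit. DYNLRB1, a light chain, had −0.96 (0.22) in PC3 and −1.18 (0.23) in FaDu, and so did not share the opposite signs of the mitotic kinesins. DYNLT3, another light chain, had 0.84 (0.22) in PC3 and was below mock in FaDu, just short of −1, the reverse of the kinesins.

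**Figure D3:**
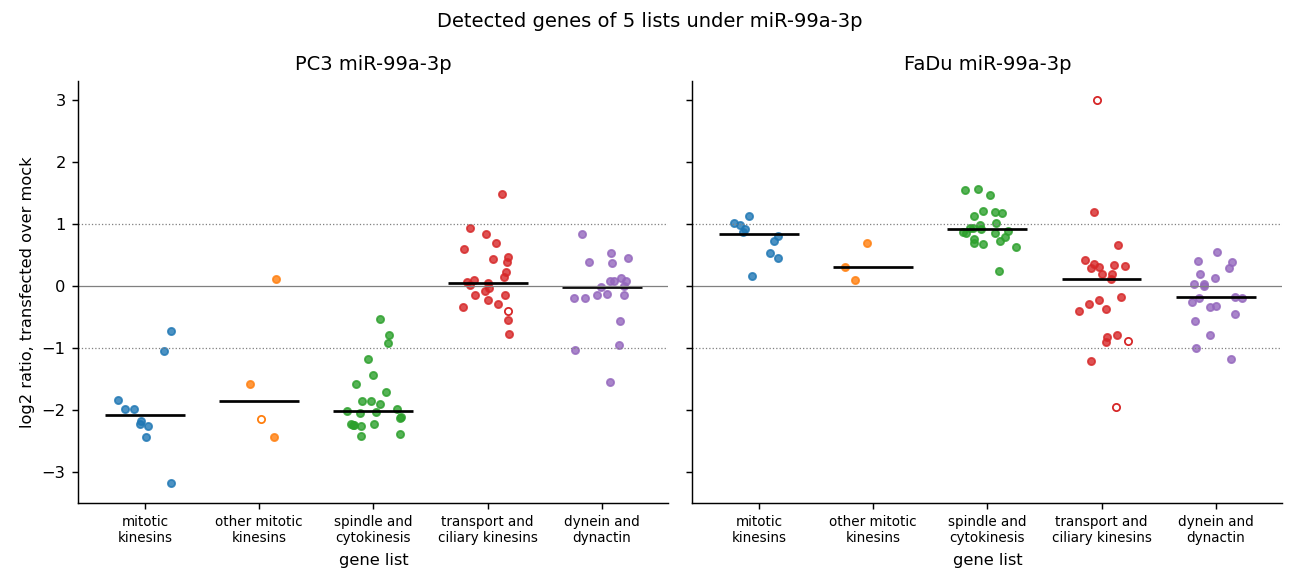
Log2 ratio of transfected over mock (vertical axis) of each detected gene of 5 lists (horizontal axis) on the PC3 (left) and FaDu (right) miR-99a-3p arrays. Filled points were above background in both channels and open points in 1, and black lines are medians, which were −2.08 and 0.84 for the mitotic kinesins and 0.05 and 0.11 for the transport and ciliary kinesins.

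The pattern over all 8 arrays was compared gene by gene with the median of the 10 kinesins, as the root mean square of the differences, among 13243 genes above background in both channels of every array. The typical gene was 0.94 away. KIF20A was at 0.11 and KIF23 at 0.12, ranks 5 and 8, which is in part built in since both enter the median. KIF20B (0.54, rank 488), KIF18A (0.45, rank 288) and KIF15 (0.41, rank 235) were the members farthest from it. The nearest genes outside the lists were CDC20 (0.10, an activator of the anaphase-promoting complex), NCAPD2 (0.10, a condensin subunit), a transcript named by the array only as ENST00000399411 (0.11), CCNB1 (0.12, cyclin B1) and RNASEH2A (0.13, a ribonuclease subunit). CDC20 had −2.10 in PC3 and 0.60 in FaDu with miR-99a-3p, and CCNB1 had −1.97 and 0.87. The nearest 100 of the 13243 genes held 6 members and 15 of the 23 partners. The count of members is in part built in, since all 10 enter the median. The 8 arrays share their slide and dyes, and those of a line may share mock RNA, so this likeness is a description.

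The mock channels gave the level of each kinesin in the mock cells of the 3 lines. Levels were scaled as the log2 Cy3 signal minus the array's median over genes detected in Cy3 on all arrays, and they were compared within a gene only. The 4 PC3 mock channels did not form 1 set. The SD over genes of the difference between 2 channels was 0.16 for the miR-150-5p and miR-150-3p arrays and 0.17 for the miR-99a-3p and miR-100-3p arrays, but 0.26 for each pair across these sets, against 0.19 in FaDu, 0.17 in PANC-1 and 1.11 to 1.31 between lines. Across the PC3 sets the kinesins differed with a median of 0.22 to 0.27, higher on the miR-150 arrays. With all 4 channels averaged as the control after limma's normexp, loess and normalization between arrays, the kinesins' median with miR-99a-3p was −1.98. The labels do not say whether mock channels hold separate cultures, so no test was run and ranges are given.

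KIF4A differed most between the lines. Its level was −0.14 and −0.10 in the 2 FaDu channels, 1.03 to 1.19 in the 4 PC3 channels and 1.64 and 1.61 in the 2 PANC-1 channels, so that the lines did not overlap. KIF15 was lowest in FaDu (−0.24 and −0.21), higher in PANC-1 (0.30 and 0.41) and highest in PC3 (0.66 to 0.87). KIF20B had the reverse order, with 0.54 and 0.57 in FaDu, −0.26 and −0.07 in PANC-1 and −0.95 to −0.50 in PC3. Its mean was 2.52-fold lower in PC3 than in FaDu, where that of KIF15 was 2.01-fold higher and that of KIF4A 2.34-fold higher.

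KIF20A and KIFC1 were also lowest in FaDu. KIF20A was at −0.17 and −0.12 there, 0.33 to 0.68 in PC3 and 0.71 and 0.73 in PANC-1. KIFC1 was at −0.27 and −0.25 in FaDu, 0.36 to 0.67 in PC3 and 0.66 and 0.70 in PANC-1, where PC3 and PANC-1 overlapped. KIF18A, KIF2C and KIF23 were lowest in PC3. KIF18A was at −2.01 to −1.67 in PC3 against −0.99 and −0.93 in FaDu and −1.11 and −0.96 in PANC-1, the last 2 lines overlapping. KIF2C was at 2.71 to 2.99 in PC3 against 3.65 and 3.70 in FaDu and 3.60 and 3.65 in PANC-1, and the order of FaDu and PANC-1 was not kept when arrays were scaled to their 75th percentile (0.03 for PANC-1 minus FaDu in place of −0.05). KIF23 was at 2.27 to 2.55 in PC3, 2.95 and 2.97 in FaDu and 3.31 and 3.35 in PANC-1. KIF11 and CENPE varied least. KIF11 was at 0.73 to 0.98 in PC3 and 0.94 and 0.98 in FaDu, which overlapped, and at 1.14 and 1.34 in PANC-1. CENPE was at 0.91 to 1.25 in PC3, a range that held both the 0.92 of 1 FaDu channel and the 1.10 and 1.12 of PANC-1.

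Counted over the 10, PC3 was above FaDu without overlap for 4 and below it for 4, where 37.5% and 46.8% of 15862 genes were. PANC-1 was above FaDu without overlap for 7 and below it for 2, where 40.7% and 49.6% of genes were. PC3 was above PANC-1 for 1, KIF15, and below it for 7, where 38.4% and 40% of genes were. The members' median difference was 0.04 for PC3 minus FaDu, 0.33 for PANC-1 minus FaDu and −0.46 for PC3 minus PANC-1.

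**Figure D4:**
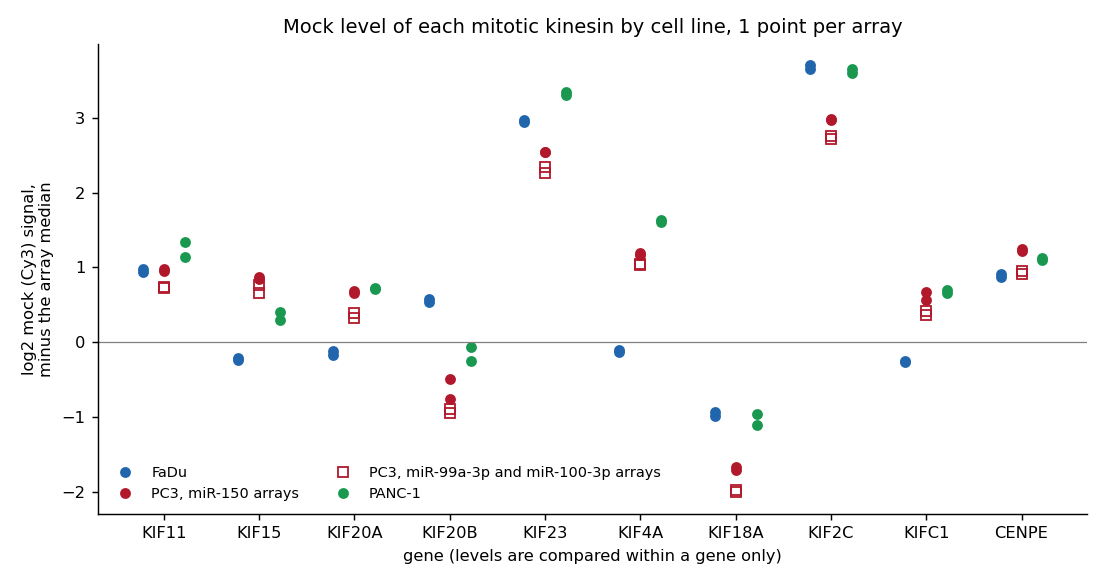
Log2 mock (Cy3) signal minus the array median (vertical axis) of each kinesin (horizontal axis) in FaDu, PC3 and PANC-1, with 1 point per array and open squares for the PC3 channels of the miR-99a-3p and miR-100-3p arrays. KIF4A separates the 3 lines most, and KIF20B is highest in FaDu and lowest in PC3.

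The promoters of the 10 genes were read for short sequences known from promoters of cell cycle genes. The window ran from 250 bases before to 50 after the start of each gene in RefSeq (GRCh38.p14), and 10 of 10 members matched by symbol. The words searched on both strands were TTTGAA and TTCGAA (of the cell cycle genes homology region), CCAAT (bound by NF-Y) and the E2F words TTTCCCGC, TTTCGCGC, TTTGCCGC and TTTGGCGC. TTTGAA was in 7 of 10 members, against 15.2% of 35116 promoters of that length, and CCAAT was in 7 of 10, against 34.6%. Both kinds together, CCAAT with TTTGAA or TTCGAA, were in 6 of 10, against 6.38%, and they were in 11 of 19 partner promoters and 2 of 22 transport kinesin promoters. TTCGAA was in 0 of 10 members, against 1.45%, and an E2F word in 1 of 10 (KIF15), against 3.31%. KIF2C and CENPE held none of the words.

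Promoters of 4 members are printed 5′ to 3′ on the gene's strand, with matched words in capitals. They are KIF15 and KIF20B, the extremes by the deposited ratios with miR-99a-3p in PC3, and KIF11 and KIF23. KIF11 and KIF23 have both kinds of word within 64 bases before the start, as do KIF4A and KIF18A, which are not printed. On the opposite strand CCAAT reads ATTGG and TTTGAA reads TTCAAA. All 4 genes lie on the plus strand, at chr3:44761544-44761843 (KIF15), chr10:89701340-89701639 (KIF20B), chr10:92592880-92593179 (KIF11) and chr15:69414099-69414398 (KIF23).
KIF15: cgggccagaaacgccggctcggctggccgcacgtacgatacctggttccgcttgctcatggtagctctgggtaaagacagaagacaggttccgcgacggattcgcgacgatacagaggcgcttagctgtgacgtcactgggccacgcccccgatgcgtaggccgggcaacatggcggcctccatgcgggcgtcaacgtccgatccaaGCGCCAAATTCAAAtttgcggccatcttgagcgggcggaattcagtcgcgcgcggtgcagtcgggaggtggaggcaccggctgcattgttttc
KIF20B: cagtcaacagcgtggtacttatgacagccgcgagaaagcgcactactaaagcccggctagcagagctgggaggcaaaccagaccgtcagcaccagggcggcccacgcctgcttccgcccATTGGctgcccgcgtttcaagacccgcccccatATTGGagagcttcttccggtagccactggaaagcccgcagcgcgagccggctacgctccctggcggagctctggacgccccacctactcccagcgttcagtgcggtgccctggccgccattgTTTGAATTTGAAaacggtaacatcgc
KIF11: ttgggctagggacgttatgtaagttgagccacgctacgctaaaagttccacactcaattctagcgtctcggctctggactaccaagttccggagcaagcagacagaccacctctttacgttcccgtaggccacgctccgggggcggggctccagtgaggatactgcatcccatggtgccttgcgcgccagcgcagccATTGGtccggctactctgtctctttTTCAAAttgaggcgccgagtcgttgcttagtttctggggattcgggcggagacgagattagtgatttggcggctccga
KIF23: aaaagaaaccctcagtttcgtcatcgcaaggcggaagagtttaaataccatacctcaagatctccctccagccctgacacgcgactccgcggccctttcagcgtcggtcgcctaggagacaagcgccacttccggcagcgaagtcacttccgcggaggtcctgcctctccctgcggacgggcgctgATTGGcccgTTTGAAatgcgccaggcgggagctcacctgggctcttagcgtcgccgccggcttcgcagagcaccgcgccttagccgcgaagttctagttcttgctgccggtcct
In KIF15 the E2F word on the opposite strand ran straight into the TTTGAA word, 43 and 35 bases before the start, and there was no CCAAT. In KIF20B the 2 TTTGAA words stood back to back, 24 and 30 bases after the start, and the 2 CCAAT words stood 131 and 98 bases before it. In KIF11 CCAAT stood 53 and TTTGAA 28 bases before the start, and in KIF23 they stood 64 and 55 bases before it. These are matches of letters in a window and no measure of binding.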

How the data were processed

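RNA of transfected cells (Cy5) and mock cells (Cy3) was compared on 8 Agilent arrays of 60-base probes, 1 per condition, annotated on hg19. The authors scanned them with Agilent Feature Extraction 10.7.3.1, which corrected background, normalized the dyes within each array (linear and lowess) and wrote the deposited processed signal, an intensity per spot, and the deposited log10 ratio of Cy5 over Cy3 with its error. The deposited series table holds the same log10 ratios, with a largest difference of 0.

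Here the deposited log10 ratios were turned into log2 ratios. Control spots and spots with an outlier flag (81 to 178 gene spots per array) were left out, repeated spots were averaged per probe, and a gene with several probes was read from the brightest one, judged by the mean log2 signal of Cy3 and Cy5 on the 8 arrays. A gene counted as detected where either channel was well above background. Ratios at or past −1 or 1 were counted. Mock levels are log2 intensities scaled to an array median. Single arrays per condition left nothing to test, and depth in reads does not apply. Named were the 10 members, of the other kinesin lists each detected gene past −1 or 1 in PC3 with miR-99a-3p, of the partners and of dynein and dynactin the 3 lowest and the highest there, the 5 genes nearest in pattern, and FOXQ1. The members and lists were chosen with earlier results of these data known. As alternatives, normexp (offset 50) and loess were run in limma 3.58.1 under R 4.3.3 and tested on simulated data, and other probes, filters, thresholds and mock channels were tried. Python 3.11.15 with numpy 2.4.6 and pandas 2.3.3 served for the rest.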

Additional observations from a re-analysis of the deposited data

Results flagged for a closer look

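With miR-99a-3p every kinesin was below mock in PC3 and above mock in FaDu, KIF2C in FaDu by less than its spot error. This opposition was picked out because each line's sample went its own way. The difference, FaDu minus PC3 on the log2 scale, had a median of 2.91 over the 10 genes. It was 3.34 for KIF11, 3.90 for KIF15, 2.85 for KIF20A, 1.17 for KIF20B, 2.99 for KIF23, 2.97 for KIF4A, 2.03 for KIF18A, 2.39 for KIF2C, 3.38 for KIFC1 and 2.36 for CENPE. The difference was not tested, since each line had 1 array with this miRNA.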

How the results depend on the processing

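The members' median log2 ratio on each of the 8 arrays moved by no more than the members' median spot error under all 64 recomputations. The same held for the 8 values without KIF11, a choice made after seeing the data. Some of the settings could not move any member, so these totals overstate what was tried. The deposited series table holds the same ratios, and the filters on dim channels removed nothing, since every member was above background in both channels. Those settings are also among the recounts and single ratios that follow, and many of the counts were 0 in the main setting. Of 144 recounts, 135 stayed within 1.5 times the count reported. The exceptions followed mostly from the threshold. At 0.58, 1 kinesin passed in FaDu with miR-99a-5p, 7 in FaDu with miR-99a-3p, 1 in PC3 with miR-150-5p (below −0.58), 6 with miR-150-3p and 5 with miR-100-3p, and at 2, 5 passed in PC3 with miR-99a-3p and 0 in FaDu with miR-99a-3p. With limma's normexp and loess 1 passed 1 in FaDu with miR-99a-3p, and with the dimmest probe of a gene 1 passed −1 in PC3 with miR-150-3p. Of the medians of other lists, those of the other mitotic kinesins moved, to −0.25 with miR-150-3p and −0.93 with miR-99a-3p under limma's normexp and loess in PC3, and to −1.58 with miR-99a-3p when both channels were required. Of 640 single ratios 24 moved by more than their error and 1 changed sign, that of KIF4A with si-FOXQ1-2 (0.0017 on the dimmest probe). Of 170 single mock differences 19 moved and 1 changed sign, that of KIF2C for PANC-1 minus FaDu (0.033 at the 75th percentile). The median mock difference for PANC-1 minus FaDu was 0.41 at the 75th percentile and 0.27 with the mean of probes. Leaving out each PC3 mock channel in turn gave −0.0116 to 0.0863 for PC3 minus FaDu, which has no settled sign, and −0.49 to −0.42 for PC3 minus PANC-1. The causes were not tested. Another limit for dim channels gave no member value, since no member was dim. No paired analysis was possible because the conditions are represented by single arrays.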
